A study of Saccharomyces cerevisiae with 12 samples.

Results

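The first 30 min of nitrogen starvation in budding yeast were compared with the hours that followed, on 6 of the 12 arrays of a series on carbon and nitrogen starvation. Cultures of the prototrophic haploid strain FY4, a MATa derivative of S288C, were grown on filters on minimal medium and then moved to plates that held glucose but lacked ammonium. RNA was taken 10 and 30 min after the move (2 arrays, called early) and 1, 2, 4 and 8 hr after it (4 arrays, called later). On every array the starved cells carried the red dye and the zero timepoint, taken before the move, carried the green dye. The members are therefore arrays chosen by their labelled times, and each time is 1 array of a filter culture. The value given below is the log2 ratio of red over green with the median of each array set to 0, so that 1 means a transcript at double its level before starvation relative to the median gene. RNA was loaded in approximately equal amounts, so a change in the total RNA of the cells is not seen and each ratio is relative to the other transcripts. Fewer cells of a kind and less RNA per cell cannot be told apart.

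Yeast takes up ammonium as a preferred source of nitrogen. While it is plentiful, the GATA factors Gln3 and Gat1 are kept from acting and the genes for using poorer sources such as proline, arginine, urea and allantoin stay low, a control known as nitrogen catabolite repression. Loss of nitrogen also lowers the activity of the TORC1 kinase, which in growing cells sustains the making of ribosomes and holds back autophagy, the delivery of cell contents to the vacuole for breakdown. A separate program, the environmental stress response, raises chaperones, antioxidant enzymes and storage carbohydrate genes under many stresses, largely through the factors Msn2 and Msn4. The comparison asks which of these transcripts had moved by 30 min and which only from 1 hr on.

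The 2 early arrays were not alike. Across genes, which are not independent replicates, the 10 min array correlated with the 30 min array at r = 0.67, with the later nitrogen arrays at 0.23 to 0.29, and with the 10 and 30 min arrays of carbon starvation at 0.69 and 0.68. The 30 min array correlated with the later nitrogen arrays at 0.63 to 0.71. Set against the table of log ratios published for these arrays, the 10 min array gave r = 0.03 across 1912 probes, while each of the other 5 gave at least 0.999. Whether the 10 min array holds the sample its label names was not tested, so each comparison is given also with 30 min alone. At 10 min 78.4% of spots had red signal clearly over background by the scanner's own call, against 90.7 to 93.4% on the other 5 arrays. As a check of the strain, all 6 MATa-specific genes examined (MFA1, MFA2, STE2, STE6, BAR1 and ASG7) were over background in red and in green on each of the 6 arrays, whereas of 4 MATalpha-specific genes the alpha-factor genes MF(ALPHA)1 and MF(ALPHA)2 did not pass the filter on dim signals and STE3 and SAG1 did. The red signal of STE3 and of SAG1 exceeded background on 5 arrays each, and the green on 4 and 6.

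Of 5897 genes tested with limma, 1099 (18.6%) were higher later than early and 1039 (17.6%) were lower at a Benjamini-Hochberg adjusted p under 0.05. With each array scaled to equal red and green totals in place of its median, the counts were 1153 and 726, and without the 1, 2 or 4 hr array they were 591 to 710 and 519 to 598. Each p-value measures the spread between these arrays, which includes the course over time and leaves out the spread of the zero timepoint. With 30 min alone against the 4 later arrays, 258 of 5898 genes (4.37%) were higher and 175 (2.97%) lower. Of these, 255 and 174 were called in the same direction in the comparison of all 6 arrays, and none was called in the opposite direction. The lone 30 min array is assumed to vary like the later arrays, and the call rests on all of them: without the 1, 2 or 4 hr array no gene was called in either direction (1334 to 1480 genes had an unadjusted p under 0.05), and without the 8 hr array 549 were higher and 468 lower. The test of 30 min alone against the zero timepoint, in the same fit, likewise called no gene without the 1, 2 or 4 hr array, and with equal totals it called 111 raised and 56 lowered in place of 400 and 314.

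Timing was read from a fixed size of change, with no test. A lasting rise or fall was a ratio at least 1 away from 0, in one direction, on all 4 later arrays, and it was counted as present by 30 min where the 30 min array was also past 1. Among 5886 genes with a value on every array there were 676 lasting rises, of which 354 (52.4%) were present by 30 min and 322 waited until 1 hr. There were 827 lasting falls, of which 398 (48.1%) were present by 30 min and 429 waited. Relative to all genes, the 4 classes held 6.01%, 5.47%, 6.76% and 7.29%. The 10 min array was not used for these classes. Of the waiting genes, 23 rises and 65 falls were already past 1 in the same direction at 10 min. Another 38 and 66 were past 1 in the opposite direction at that time. At 30 min the median lasting rise had reached 47.6% of its later mean on the log2 scale and the median lasting fall 39.6%.

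**Figure D1:**
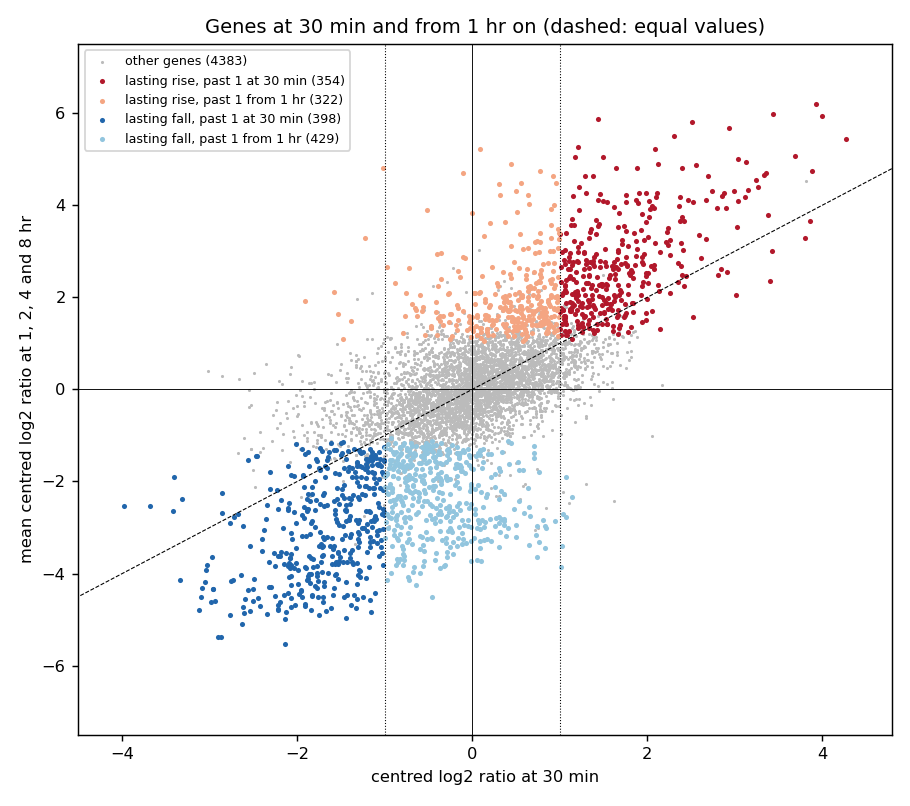
Each point is a gene, with its centred log2 ratio at 30 min on the horizontal axis and the mean of its ratios at 1, 2, 4 and 8 hr on the vertical axis. The 354 lasting rises and 398 lasting falls that were past 1 at 30 min (dotted lines) are drawn dark. The 322 and 429 that were not past 1 at 30 min are drawn light.

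The line at 1 falls within a continuous spread. There were 85 lasting rises with a 30 min value between 1 and 1.25 and 91 between 0.75 and 1, and the genes nearest the line were YMR085W at 1.001 and YET3 at 0.994. For lasting falls, 87 genes lay within 0.25 beyond -1 and 98 within 0.25 short of it. Of the genes that waited, 135 rises and 208 falls were under 0.5 in size at 30 min. A further 22 rises and 28 falls were at least 0.5 to the opposite side at that time.

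Genes of ribosome synthesis differed in their ratios at 30 min, a difference between groups that is described here and was not tested. Genes for ribosome assembly, whose products process ribosomal RNA and build the subunits in the nucleolus, were past -1 at 30 min in 74 of 88 cases, and the median stood at -0.50 and -1.81 at 10 and 30 min and at -5.10, -5.26, -3.15 and -2.55 at 1, 2, 4 and 8 hr. Genes for the ribosomal proteins of the cytosol were still close to their starting level, with a median of 0.21 and -0.03 early and of -3.06, -4.10, -2.96 and -1.75 later, and 7 of 137 were past -1 at 30 min. Over all tested genes the medians lay between -0.03 and 0.04 on the 6 arrays. In the assembly list 72 lasting falls were present by 30 min and 11 waited, and in the ribosomal protein list 6 were present by 30 min and 108 waited. These are counts by size: with the 30 min array tested alone against the zero timepoint, 2 assembly genes and 1 ribosomal protein gene were called lowered, where 5.32% of all genes were.

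Genes of both groups were called lower later than early. In the 6-array comparison 52 of 88 assembly genes and 125 of 137 ribosomal protein genes were called lower, where 17.6% of all genes were. None of either was called higher, where 18.6% of all genes were. Against 30 min alone 3 and 5 were called lower, close to the 2.97% of all genes, so those counts set neither group apart. For ribosomal protein genes with all 6 values, the later arrays lay below both early arrays in 130 of 134, where 29.7% of all genes did so. Many ribosomal proteins are encoded by near-identical pairs of genes whose probes can share signal, so the counts are not of independent transcripts.

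Among assembly genes, NSA2, which acts in assembly of the large subunit, stood at -1.60 and -3.12 early and at -5.66, -6.53, -3.92 and -3.08 later. RPF1, a large-subunit assembly factor that binds ribosomal RNA, stood at -1.38 and -3.09 early and at -6.22, -5.95, -3.11 and -2.01 later. NSR1, a nucleolar protein needed for processing of the small-subunit RNA, stood at -1.94 and -3.09 early and at -5.45, -5.55, -3.55 and -3.46 later. At 30 min NSA2 and RPF1 lay below their 8 hr value and NSR1 above all of its later values, and the later minus early difference did not pass the test (adjusted p = 0.0949, 0.232 and 0.0759 in that order).

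Some nucleolar genes waited instead. NOP1, which encodes fibrillarin, the methyltransferase that modifies ribosomal RNA, stood at 0.60 and -0.46 early and at -4.60, -5.42, -3.89 and -4.14 later. It was lower later by a log2 difference of -4.59 (SE 0.50, adjusted p = 0.00512) and against 30 min alone by -4.06 (adjusted p = 0.0377). CBF5, the pseudouridine synthase of ribosomal RNA, stood at 1.12 and -0.31 early and at -4.53, -5.59, -2.73 and -2.40 later (difference -4.22, SE 0.96, adjusted p = 0.0198, and adjusted p = 0.150 against 30 min alone). In both genes every later array lay below both early arrays, where 29.7% of all genes did so.

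Ribosomal protein genes were among the largest falls between the early and later arrays. RPL9A, encoding a protein of the large subunit, stood at 1.25 and 1.01 early and at -2.95, -4.90, -4.08 and -3.53 later. RPL27A, also of the large subunit, stood at 2.07 and 1.03 early and at -3.18, -4.66, -3.37 and -2.38 later. RPL12A was at 0.24 and -0.01 early and at -4.16, -5.05, -3.36 and -2.35 later. All early values of these genes lay above all later ones, as in 29.7% of all genes. The differences were -4.99 (SE 0.52, adjusted p = 0.00492), -4.95 (SE 0.63, adjusted p = 0.00652) and -3.84 (SE 0.69, adjusted p = 0.0116). With 30 min alone the adjusted p was 0.0378, 0.0488 and 0.0847. RPL9A, RPL9B, RPL27A and RPS29A were past 1 at 30 min and past -1 on all later arrays, as were only GDH1 and MET14 among the other genes. The reverse course, past -1 at 30 min and past 1 on all later arrays, was taken by 7 genes, among them CAR2 and PRB1.

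**Figure D2:**
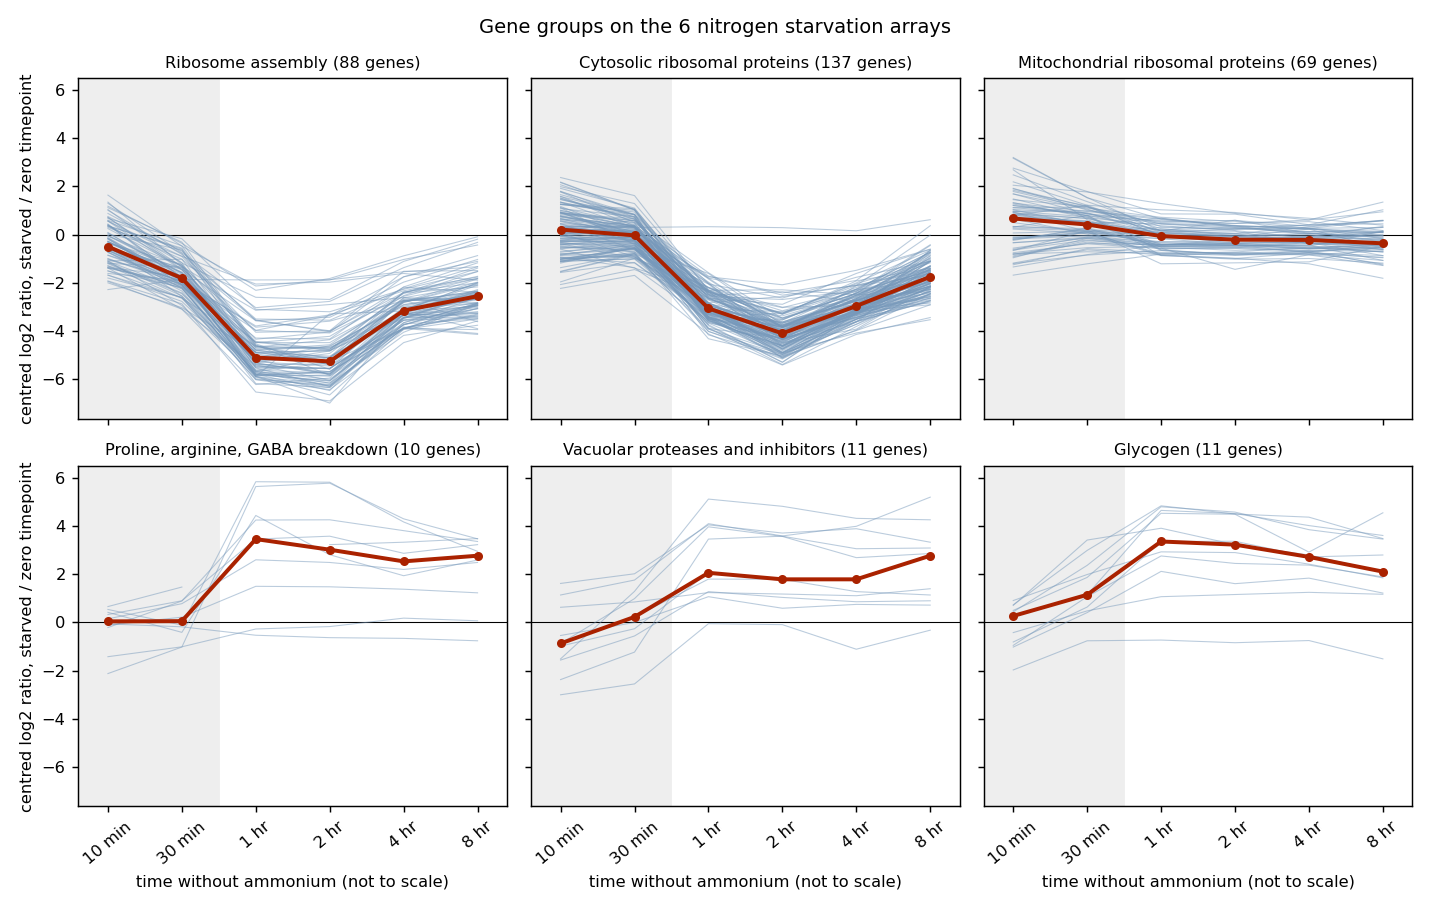
Each thin line is a gene of the group named above the panel, drawn over the 6 nitrogen arrays in order of time (not to scale), with its centred log2 ratio on the vertical axis; the thick line is the median of the group and the shaded part marks the 2 early arrays. Ribosome assembly genes have a median of -1.81 at 30 min, when that of cytosolic ribosomal proteins is -0.03, and the median of genes for proline, arginine and GABA breakdown moves from 0.06 at 30 min to 3.46 at 1 hr.

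RNA polymerase I, which transcribes ribosomal RNA, followed the assembly genes in part. Of 8 genes (7 subunits and the initiation factor RRN3), 5 had a lasting fall by 30 min and 2 waited. RPA49 stood at -0.78 and -2.14 early and at -6.18, -6.80, -4.77 and -4.36 later (difference -4.07, SE 0.76, adjusted p = 0.0124, and 0.0991 against 30 min alone). RPA43, which waited, stood at 1.34 and -0.79 early and at -4.79, -4.62, -3.26 and -2.56 later. RPA12, a small subunit that takes part in cleavage of the transcript, also waited. It stood at 3.18 and 0.21 early and at -4.35, -4.16, -2.47 and -2.21 later. The later minus early difference of RPA12 was -5.00 (SE 0.97, limma adjusted p = 0.0135), and it was -3.51 from 30 min alone. The 2 early values of RPA12 differed by more than the 4 later ones.

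Other genes of protein synthesis mostly waited. Of 18 aminoacyl-tRNA synthetase genes, whose products load amino acids onto tRNAs, 14 had a lasting fall that waited and 1 had one by 30 min. At 30 min the 14 ran from -0.99 for SES1 to 0.42 for HTS1, so some were already close to the line. DPS1, FRS1, SES1 and DED81 among them were past -1 at 10 min, at -2.01, -1.60, -1.33 and -1.04. The median of all 18 was -0.55 and -0.45 early and -1.90, -2.21, -1.86 and -1.91 later. Of the 18, 14 were called lower later than early, where 17.6% of all genes were. The later minus 30 min difference ran from -2.31 for KRS1 to -0.44 for GUS1. Of 29 translation factor genes, 9 had a lasting fall by 30 min and 13 waited, and 17 were called lower, where 17.6% of all genes were. TIF4631, encoding the scaffold factor eIF4G, stood at -1.59 at 30 min, whereas TIF11, encoding eIF1A, stood at 0.76 and then at -1.93 at 1 hr (later minus early -3.06, SE 0.37, adjusted p = 0.00644, and 0.0366 against 30 min alone). TIF1 and TIF2, EFT1 and EFT2, and TEF1 and TEF2 are pairs of near-identical genes, so their separate values are uncertain.

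Genes of purine synthesis mostly had a lasting fall that was short of -1 at 30 min. Of 17 genes 14 had a lasting fall that waited and 2 had one by 30 min. The 14 that waited were all below 0 at 30 min, from -0.98 for ADE17 to -0.17 for ADE2, so some were already close to the line. Later than early 15 were called lower, where 17.6% of all genes were. The later minus 30 min difference ran from -3.23 for IMD3 to 0.91 for ADE16. ADE4, encoding the first enzyme of the pathway, stood at 0.24 and -0.74 early and at -3.70, -3.66, -2.84 and -3.08 later (difference -3.07, SE 0.38, adjusted p = 0.00652, and 0.0405 against 30 min alone). IMD3, an IMP dehydrogenase gene of guanine nucleotide synthesis, stood at -0.51 and -0.29 early and at -3.28, -4.33, -3.21 and -3.27 later, with adjusted p = 0.00597 and 0.0400 in the same order. ADE16 moved the other way, from -1.40 and -0.36 early to between 0.43 and 0.68 later (difference 1.43, SE 0.31, adjusted p = 0.0181, and 0.0650 against 30 min alone). ADE16 and ADE17 encode isozymes of the closing steps of IMP synthesis, and ADE17 went from -0.40 and -0.98 to between -5.01 and -3.55 (adjusted p = 0.00726, and 0.0511 against 30 min alone).

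Amino acid synthesis was mixed. Lasting falls that waited numbered 5 of 7 genes for histidine, 5 of 12 for branched-chain amino acids, 5 of 14 for aromatic ones, 5 of 19 for sulfur amino acids, 2 of 9 for arginine and 3 of 8 for lysine. Those present by 30 min numbered 0, 3, 1, 4, 1 and 0 in the same order. ARG1, encoding argininosuccinate synthetase of arginine synthesis, went the other way, from -0.48 and -0.08 early to 2.95, 2.80, 1.71 and 1.00 later (difference 2.39, SE 0.58, adjusted p = 0.0230, and 0.150 against 30 min alone). MET14, encoding the kinase of adenylylsulfate in sulfate assimilation, was at 2.81 and 1.08 early and between -2.08 and -1.44 later (difference -3.84, SE 0.48, adjusted p = 0.00652, and 0.0341 against 30 min alone). GDH1, encoding the dehydrogenase that joins ammonium to 2-oxoglutarate to make glutamate, was at 0.37 and 1.14 early and at -1.11, -2.88, -2.50 and -2.84 later (difference -3.08, SE 0.55, adjusted p = 0.0112, and 0.0558 against 30 min alone).

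Genes for the use of poorer nitrogen sources mostly lay within 1 of their starting level at 30 min. In the list for breakdown of proline, arginine and the amino acid GABA, 7 of 10 genes had a lasting rise, and all 7 waited until 1 hr. UGA2, encoding succinate semialdehyde dehydrogenase, had no value at 1 hr and was not classed, and it stood at 0.66 and 1.47 early and between 3.23 and 3.48 at 2, 4 and 8 hr. Across that list 9 genes were called higher later than early, where 18.6% of all genes were. The later minus 30 min difference ran from -0.47 for PUT3 to 5.82 for CAR2. The list median was 0.04 and 0.06 early and 3.46, 3.02, 2.54 and 2.77 later. At 30 min the genes lay on both sides of 0, from -1.02 for CAR2 to 1.47 for UGA2. CAR2, encoding ornithine transaminase of arginine breakdown, stood at -2.12 and -1.02 early and at 5.64, 5.78, 4.30 and 3.47 later, and its red signal exceeded background on 1 of the 2 early arrays. The difference was 6.37 (SE 0.72, adjusted p = 0.00553, and 0.0413 against 30 min alone).

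CAR1, encoding arginase, stood at 0.54 and -0.11 early and at 5.84, 5.82, 4.17 and 2.95 later (difference 4.48, SE 0.85, adjusted p = 0.0127, and 0.0744 against 30 min alone). PUT1, encoding proline oxidase, stood at -0.21 and 0.89 early and at 4.25, 4.26, 3.81 and 3.36 later (difference 3.58, SE 0.40, adjusted p = 0.00553, and 0.0342 against 30 min alone). UGA4, encoding the GABA permease, stood at 0.42 and -0.41 early and at 4.44, 2.81, 1.94 and 2.59 later (difference 2.94, SE 0.67, adjusted p = 0.0201, and 0.0898 against 30 min alone). In all 3 genes every later array lay above both early arrays, where 29.5% of all genes did so, and the 1 hr array was the highest or within 0.01 of it. Genes under 0.5 in size at 30 min, as CAR1 and UGA4 were, were named by the size of their change to 1 hr, which favours such a course. PUT3 and UGA3, which encode transcriptional activators of some genes of this list, had no lasting rise. PUT3 lay between -0.76 and -0.06 on the 6 arrays (later against early adjusted p = 0.0702). UGA3 lay at -1.42 and -1.01 early and returned to between -0.27 and 0.18 later (difference 1.17, adjusted p = 0.0153, and a difference of 0.96 from 30 min alone).

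Genes for the use of allantoin and urea had a higher median at 10 min than at 30 min. DAL4, encoding the allantoin permease, stood at 3.64 and 0.56 early and at 4.75, 4.82, 4.50 and 3.86 later. It missed the test over 6 arrays (adjusted p = 0.0546) and passed it against 30 min alone (difference 3.93, adjusted p = 0.0341). DUR3, encoding the urea transporter, stood at 1.51 and 0.30 early and at 3.73, 4.84, 4.79 and 4.49 later (difference 3.56, SE 0.45, adjusted p = 0.00652, and 0.0341 against 30 min alone). In the list of 11 genes 4 had a lasting rise, all of which waited, and the median was 1.14 and 0.46 early and 1.38, 1.49, 1.22 and 0.63 later. Of the 11, 3 were called higher later than early, where 18.6% of all genes were. DAL2, DAL81 and DCG1 each had their own highest value at 10 min, at 2.21, 2.07 and 1.91.

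Of the GATA factors, the repressor gene DAL80, itself a target of Gln3 and Gat1, stood at 1.59 and 0.44 early and at 2.66, 2.41, 2.24 and 2.33 later (difference 1.40, SE 0.34, adjusted p = 0.0242, and 0.0341 against 30 min alone). GLN3, GAT1, GZF3 and URE2, which encodes the protein that retains Gln3 in the cytoplasm, did not pass the later against early test (adjusted p between 0.41 and 0.879), and their 30 min values lay between -0.72 and -0.29. Against the zero timepoint GLN3 and URE2 were lowered early, with means of -0.75 and -0.86 (limma adjusted p = 0.0189 and 0.0378). Those calls use the 10 min array, where GLN3 and URE2 stood at -0.78 and -1.07. At 30 min alone they stood at -0.72 and -0.65. Later they were lowered too, with means of -0.98 and -1.19 (adjusted p = 0.000573 and 0.00114), and GAT1 and GZF3 were not called at either stage. MEP2, the high-affinity ammonium permease, stood at -1.23 and -0.27 early and at 1.24, 0.30, 0.41 and 0.58 later (difference 1.38, SE 0.38, adjusted p = 0.0324, and 0.204 against 30 min alone).

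Permeases for amino acids and peptides split. Of 21 genes, 5 had a lasting rise and all 5 waited, 3 had a lasting fall by 30 min and 1 waited. AGP2, a plasma membrane protein first described as an amino acid permease, stood at -0.89 and -0.98 early and at 2.66, 2.79, 2.61 and 2.54 later (difference 3.58, SE 0.19, adjusted p = 0.00303, and 0.0341 against 30 min alone), and its red signal exceeded background on 1 early array. DIP5, the permease for glutamate and aspartate, stood at -0.34 and -0.35 early and at 3.22, 2.96, 1.93 and 1.48 later (difference 2.74, SE 0.51, adjusted p = 0.0123, and 0.0828 against 30 min alone). GNP1, a glutamine permease, went down, from -0.08 and -0.72 early to -3.33, -3.40, -3.18 and -3.11 later (difference -2.85, SE 0.25, adjusted p = 0.00454, and 0.0341 against 30 min alone). GAP1, the general amino acid permease, was at 0.05 and 0.35 early and between 1.54 and 2.72 later (adjusted p = 0.0161, and 0.109 against 30 min alone), with saturated spots on some arrays.

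**Figure D3:**
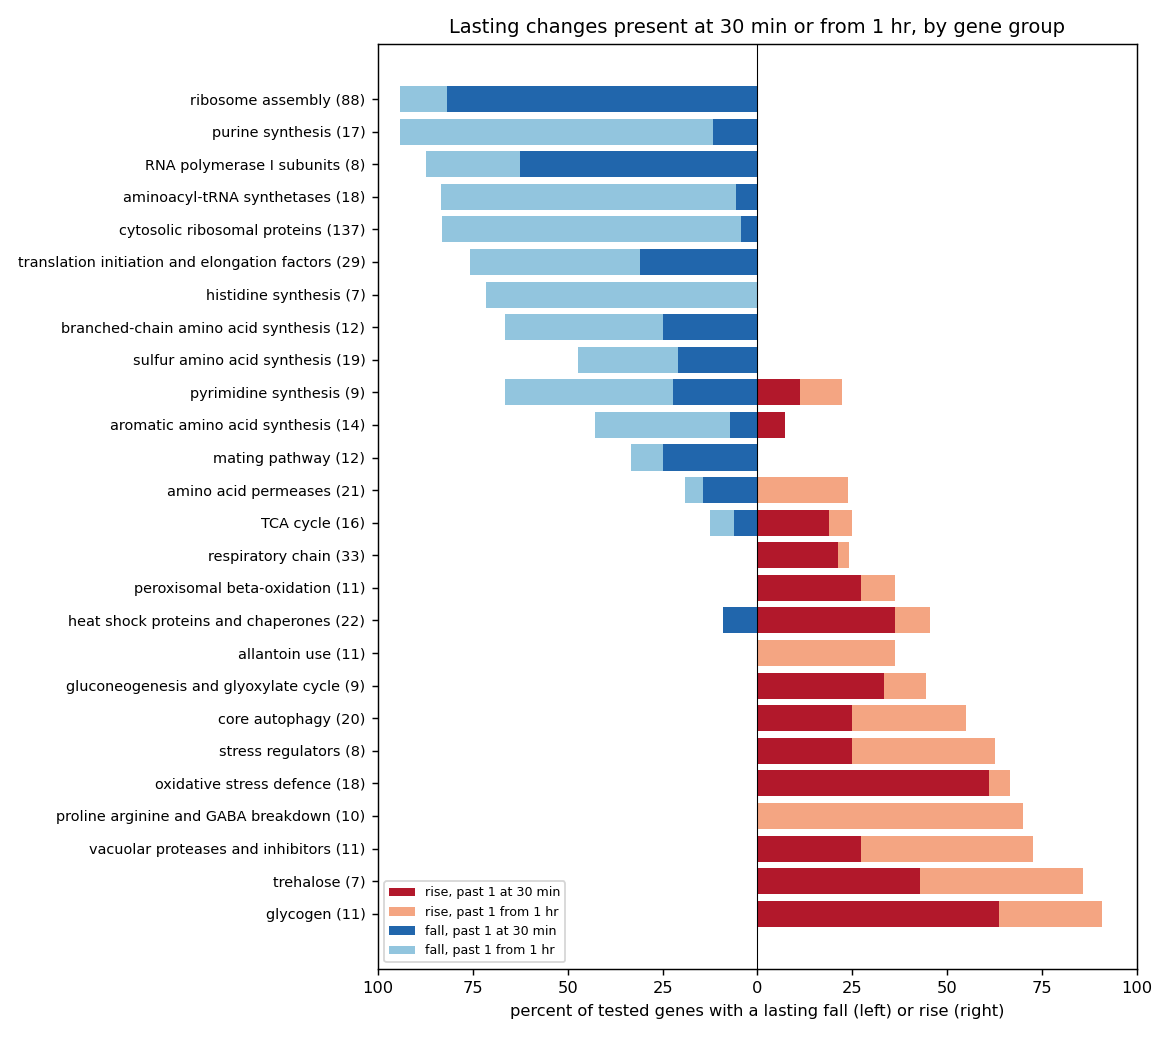
Bars cover each gene group with at least 4 lasting rises or 4 lasting falls (number of tested genes in parentheses). They give the percent of tested genes with a lasting fall, to the left, and with a lasting rise, to the right. Dark parts were past 1 at 30 min and light parts were not. The 72 of 88 ribosome assembly genes with a lasting fall past -1 at 30 min stand against 6 of 137 cytosolic ribosomal proteins, and the 7 rises of the proline, arginine and GABA group and the 4 of the allantoin group are all light.

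Autophagy genes rose in both phases. Of 20 core genes 5 had a lasting rise by 30 min and 6 waited, and 11 were called higher later than early, where 18.6% of all genes were. The later minus 30 min difference ran from -0.41 for ATG12 to 2.32 for ATG8. ATG8, encoding the ubiquitin-like protein of the growing autophagosome membrane, stood at 1.06 and 1.75 early and at 4.24, 4.17, 3.51 and 4.39 later (difference 2.67, SE 0.33, adjusted p = 0.00652, and 0.0413 against 30 min alone). ATG1, encoding the kinase that starts the process, stood at -0.48 and 0.48 early and at 2.63, 2.96, 2.64 and 2.85 later (difference 2.77, SE 0.30, adjusted p = 0.00527, and 0.0341 against 30 min alone), and its red signal exceeded background on 1 early array. ATG14, encoding the autophagy subunit of the phosphatidylinositol kinase complex, was already at 2.61 at 30 min and lay between 2.54 and 3.35 later, but its green signal exceeded background on 0 of 6 arrays, so the size of its ratio is uncertain.

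Vacuolar proteases, their inhibitors and the ubiquitin gene UBI4 made up a further list. Of its 11 genes 10 were called higher later than early, where 18.6% of all genes were. The later minus 30 min difference ran from 0.38 for DAP2 to 4.53 for PRB1. In all 11 the later arrays lay above both early ones, where 29.5% of all genes did so. PRB1, encoding proteinase B, stood at -2.37 and -1.23 early and at 3.46, 3.58, 3.06 and 3.09 later (difference 5.10, SE 0.36, adjusted p = 0.00454, and 0.0341 against 30 min alone), and its red signal exceeded background on 1 early array. PRC1, encoding carboxypeptidase Y, was at -1.56 and -0.56 early and between 0.86 and 1.28 later (adjusted p = 0.00816, and 0.0405 against 30 min alone).

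The 3 lasting rises of this list that were present by 30 min were all of inhibitors. PBI2, the inhibitor of proteinase B, was at 1.62 and 2.02 early and at 4.05, 3.71, 3.89 and 3.33 later (adjusted p = 0.00755, and 0.0488 against 30 min alone). PAI3, the inhibitor of proteinase A, was at 1.14 and 1.76 early and between 3.59 and 5.20 later (adjusted p = 0.00985, and 0.0744 against 30 min alone). TFS1, the inhibitor of carboxypeptidase Y, stood at -1.51 and 1.29 early and at 5.12, 4.82, 4.32 and 4.26 later (difference 4.74, SE 0.73, adjusted p = 0.00818, and 0.0341 against 30 min alone). YSP3, a gene for a putative protease related to proteinase B and not in the list, was flat early at -0.06 and 0.14 and stood at 3.67, 3.78, 2.95 and 2.88 later (difference 3.28, SE 0.33, adjusted p = 0.00492, and 0.0343 against 30 min alone).

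The 6 largest rises present by 30 min were of TMA10, SOL4, PHM7, RGI1, HSP42 and BDH2. HSP42, a small heat shock protein gene, stood at 1.75 and 3.69 early and at 5.10, 4.92, 4.48 and 5.76 later (difference 2.35, SE 0.58, adjusted p = 0.0247, and 0.140 against 30 min alone). SOL4, encoding a 6-phosphogluconolactonase, stood at 2.56 and 4.00 early and at 6.43, 6.22, 5.27 and 5.82 later (adjusted p = 0.0119, and 0.0714 against 30 min alone). TMA10, whose product associates with ribosomes, was at 2.40 and 4.27 early and between 5.12 and 6.19 later (adjusted p = 0.0297, and 0.168 against 30 min alone).

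BDH2, a putative butanediol dehydrogenase gene, was at 2.05 and 3.43 early and between 5.33 and 6.60 later (adjusted p = 0.00849, and 0.0545 against 30 min alone). PHM7, a membrane protein gene, was at 0.87 and 3.93 early and between 5.74 and 7.52 later (adjusted p = 0.0221, and 0.128 against 30 min alone). In all of these except RGI1 every later array lay above both early arrays, where 29.5% of all genes did so. RGI1, a gene for a protein of respiratory energy metabolism, was at its later level by 10 min, at 3.86 on both early arrays and at 4.16, 3.94, 3.31 and 3.24 later (difference -0.20, SE 0.32, adjusted p = 0.641). Of 22 chaperone genes 8 had a lasting rise by 30 min and 2 waited, and of 18 genes of oxidative stress defence 11 had one by 30 min and 1 waited. The catalase gene CTT1 rose further after 30 min, from 1.32 and 2.31 early to 5.48, 5.18, 5.31 and 6.07 later (difference 3.69, SE 0.37, adjusted p = 0.00492, and 0.0341 against 30 min alone). HSP30 and SSA3 were slower than either class, at 0.07 and -0.38 at 30 min, 0.23 and -0.04 at 1 hr and 6.11 and 3.69 at 8 hr, and neither passed the later against early test (adjusted p = 0.143 and 0.219). The red signal of HSP30 exceeded background on 1 early array.

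Storage carbohydrate genes differed among themselves. In glycogen metabolism 7 of 11 genes had a lasting rise by 30 min and 3 waited. GSY1, a glycogen synthase gene, was close to its peak at 30 min, at 0.71 and 3.42 on the early arrays and at 3.91, 3.23, 2.80 and 2.11 later (adjusted p = 0.372). GPH1, encoding glycogen phosphorylase, was at 0.27 and 1.15 early and at 4.65, 4.52, 4.02 and 3.61 later (difference 3.49, SE 0.39, adjusted p = 0.00553, and 0.0369 against 30 min alone). In the trehalose pathway 6 of 7 genes were called higher later than early, where 18.6% of all genes were. The later minus 30 min difference ran from 0.39 for TPS3 to 1.86 for TPS2. TPS2, encoding trehalose phosphate phosphatase, was at 0.10 and 1.94 early and at 3.88, 3.63, 3.97 and 3.74 later (difference 2.78, SE 0.48, adjusted p = 0.0106, and 0.0341 against 30 min alone), and NTH1, encoding the neutral trehalase that degrades it, was at -0.78 and 0.91 early and between 2.00 and 2.62 later (adjusted p = 0.0146, and 0.0531 against 30 min alone).

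Hexose transporters split in the same window. HXT5, expressed in slowly growing cells, stood at -0.14 and 2.94 early and at 5.26, 5.44, 5.17 and 6.81 later (difference 4.27, SE 0.87, adjusted p = 0.0153, and 0.0729 against 30 min alone), and its red signal exceeded background on 1 early array. The high-affinity transporter genes HXT6 and HXT7, whose probes can share signal because the genes are nearly identical, were at 2.91 and 2.84 at 30 min and between 2.01 and 3.43 later. They did not pass the later against early test (adjusted p = 0.598 and 0.464), whether or not the 10 min array was used.

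Of the 6 lowest genes at 30 min among the lasting falls, HAC1, HEM3 and GFD2 lie outside ribosome assembly. HAC1, encoding the transcription factor of the unfolded protein response, stood at -4.38 and -3.98 early and at -3.24, -2.39, -2.31 and -2.18 later. HEM3, encoding porphobilinogen deaminase of heme synthesis, stood at -2.83 and -3.41 early and at -2.49, -1.91, -1.70 and -1.47 later. Both were lowest early and higher later, by 1.65 (SE 0.35, adjusted p = 0.0163, and 0.111 against 30 min alone) and 1.22 (SE 0.34, adjusted p = 0.0331, and 0.0894 against 30 min alone). GFD2 was at -3.14 and -3.34 early and between -5.06 and -3.15 later (adjusted p = 0.266). TOD6, encoding a repressor of ribosome assembly genes, was at -0.35 and -2.76 early and at -5.44, -5.37, -3.35 and -2.51 later (adjusted p = 0.0880).

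**Figure D4:**
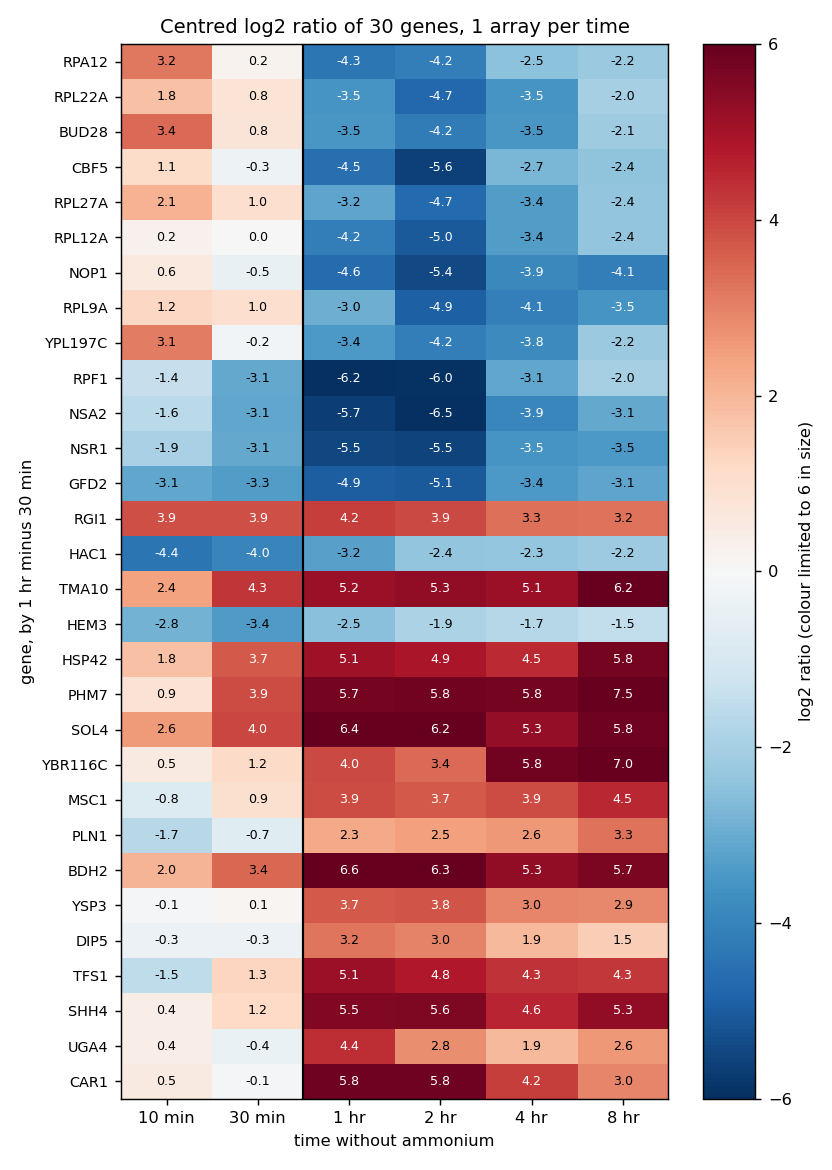
Colour and number give the centred log2 ratio of 30 genes on each of the 6 arrays (1 array per column), with genes ordered by the change from 30 min to 1 hr and a vertical line between the early and later arrays. CAR1 at the bottom goes from -0.11 to 5.84 across that line and RPA12 at the top from 0.21 to -4.35, while RGI1 is at 3.86 before it and 4.16 after it.

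Changes seen only early were fewer. There were 24 genes past 1 at 30 min and under 0.5 in size on all later arrays (0.408% of genes), and 46 past -1 at 30 min and back under 0.5 (0.782%). Of the 24 rises 6 encode mitochondrial ribosomal proteins, a group of 69 with a median of 0.67 and 0.42 early and of -0.06, -0.21, -0.22 and -0.36 later. In that group 32 genes were raised over the zero timepoint on the early arrays (17.2% of all genes were) and 7 were lowered. With 30 min alone 13 were raised (6.78% of all genes were) and 1 lowered. Later against early 29 were lower and 2 higher, where 17.6% and 18.6% of all genes were. The later minus 30 min difference ran from -1.82 for MRPL20 to 0.55 for MRP20. MRPL49, of the large subunit, stood at 3.20 and 1.54 early and between -0.09 and 0.23 later (difference -2.26, SE 0.44, adjusted p = 0.0136, and 0.0401 against 30 min alone). COX17, encoding a copper chaperone for cytochrome oxidase, stood at 3.61 and 1.60 early and between -0.46 and 0.06 later (adjusted p = 0.0123, and 0.0377 against 30 min alone).

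Among the 46 early falls, named here after their values were seen, were SCH9, encoding a kinase activated by TORC1, and RSP5, encoding the ubiquitin ligase that directs permeases to the vacuole. SCH9 stood at -1.50 and -1.11 early and at 0.15, 0.42, 0.15 and 0.35 later (difference 1.57, SE 0.22, adjusted p = 0.00743, and 0.0413 against 30 min alone). RSP5 stood at -2.25 and -1.68 early and between -0.38 and -0.20 later (adjusted p = 0.00743, and 0.0365 against 30 min alone). ZWF1, encoding glucose-6-phosphate dehydrogenase, was at -2.06 and -1.14 early and between 0.16 and 0.31 later (adjusted p = 0.00866, and 0.0368 against 30 min alone).

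The remaining genes among the largest later minus early differences were these. SHH4, a homologue of a succinate dehydrogenase subunit, was at 0.38 and 1.21 early and at 5.54, 5.62, 4.56 and 5.32 later (difference 4.47, SE 0.39, adjusted p = 0.00454, and 0.0341 against 30 min alone). PLN1, encoding a perilipin of lipid droplets, was at -1.67 and -0.72 early and at 2.26, 2.45, 2.59 and 3.27 later (difference 3.84, SE 0.38, adjusted p = 0.00492, and 0.0341 against 30 min alone). MSC1 was at -0.84 and 0.94 early and between 3.68 and 4.51 later (difference 3.96, SE 0.50, adjusted p = 0.00652, and 0.0341 against 30 min alone).

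A further 3 names of the array, BUD28, YPL197C and YBR116C, have no entry in the reference gene table used, and their systematic names neighbour RPL22A, RPL7B and TKL2. BUD28 was at 3.38 and 0.76 early and at -3.47, -4.20, -3.47 and -2.11 later, beside 1.78 and 0.84 and -3.54, -4.69, -3.52 and -2.01 for RPL22A. YPL197C was at 3.09 and -0.17 early and between -4.17 and -2.23 later, beside 1.12 and -0.41 and between -3.43 and -1.47 for RPL7B. YBR116C was at 0.53 and 1.17 early and at 3.96, 3.42, 5.77 and 7.01 later, beside -0.16 and -0.52 and 2.81, 2.56, 4.76 and 5.45 for the transketolase gene TKL2. The red signal of RPL7B exceeded background on 2 later arrays, and that of TKL2 on 1 early array. Whether each probe reads its neighbour was not tested.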

How the data were processed

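Ratios came from 2-colour oligonucleotide arrays of poly(A)+ RNA, with each starved sample in red (Cy5) against a zero timepoint reference in green (Cy3) and no dye swap. Per the file headers, the deposited processed intensities had been background-corrected with spatial detrending and dye-normalized by LOWESS within each array by the scanner software, and the deposited log10 ratio is that of the processed red over green intensity. The deposited series table holds the log2 of the same ratio and served as an alternative. Here log2 ratios were computed from the processed intensities without control spots and outlier spots, spots of a probe were averaged, and each array was centred on its median (6256 probes, of which 5756 matched an R64 gene). Genes with a signal well above background on at least 2 of the 6 arrays and values on both early and at least 3 later arrays were kept. A linear model with moderated variances (limma, version 3.58.1, run under R 4.3.3) compared early with later arrays, and p-values were adjusted over all tested genes by Benjamini and Hochberg's method. The precision is limited by the number of arrays, and each time point has 1. The arrays lie on different slides, so slide and time cannot be told apart. The fit was tested on simulated data.

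Named genes were the 6 largest rises and falls later minus early, the 6 largest and 6 smallest 30 min ratios among lasting changes present by 30 min, the 4 rises and 4 falls with the largest change from 30 min to 1 hr among genes flat (under 0.5 in size) at 30 min, all with both channels well above background and unsaturated on all 6 arrays, and members of the lists described by role. Members and lists were chosen with earlier results of these data known. Promoter motifs were not analysed here.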

Additional observations from a re-analysis of the deposited data

Results flagged for a closer look

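Among the 4 later arrays, 75 sets of values (named genes and medians of gene groups) were examined for 1 array far from the others, a criterion that chance meets in about 1 set in 20, and 4 sets had one. PHM7 stood at 7.52 at 8 hr and between 5.74 and 5.79 at 1, 2 and 4 hr. The median of the aminoacyl-tRNA synthetase genes was -2.21 at 2 hr and between -1.91 and -1.86 at the other later times. The median of GCN4 and the genes that control it was 0.40 at 8 hr and between -0.73 and -0.56 before. The median of the hexose transporters was 1.03 at 4 hr and between 0.16 and 0.20 at the other later times.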

How the results depend on the processing

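No paired analysis was possible because each time point has 1 array and the labels carry no replicate numbers. The count of genes higher and lower later than early was 427 and 370 in one fit over all 12 arrays, and leaving out 1 array gave 258 to 1182 and 175 to 1151, the lowest without the 10 min array. Genes raised and lowered from the zero timepoint on the early arrays numbered 1012 each. They numbered 529 and 574 in the 12-array fit, 658 and 642 with a change of at least 1 also required, and 400 to 1115 and 314 to 1169 with 1 array left out. For the later arrays the counts with that requirement were 1032 and 1126, against 1916 and 1915 without it. The alternatives for 30 min alone were chosen after seeing the data: 168 genes were higher with both channels above background on all 6 arrays, and leaving out 1 later array gave 0 to 549 higher and 0 to 468 lower.

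Lasting rises present by 30 min numbered 159 with normexp and loess, 806 at a threshold of 0.5 and 162 at 1.5, and lasting falls 870 and 190 at these thresholds. The share of lasting changes present by 30 min ran from 39.5 to 63.4% for rises and from 36.8 to 64.2% for falls over all settings. Of 30 named genes 16 lost their call without the 10 min array and 9 in the 12-array fit. RGI1 turned to 0.03 later minus early with equal totals, not called on either scale. That scaling moved the median of all tested genes to 0.30, 0.58 and 0.30 at 1, 2 and 4 hr. Of 31 gene groups with a median later minus early difference of at least 0.5, none changed sign in the 13 settings run, but of all 45 group medians 15 moved by more than the SD of that median over the later arrays with equal totals, 12 without the 10 min array, 11 without the 30 min array, 10 with normexp and loess and 0 to 8 in the others. Timing classes without the 30 min array could not be formed, those without the 10 min array do not use it, and promoter motifs were not run.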

Other observations

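Ratios on the early arrays ran with coding length. Across 5566 genes, which are not independent replicates, Spearman's rho between the ratio and coding length was -0.25 at 10 min, -0.23 at 30 min and -0.12 to -0.06 on the later arrays, given as a description. The median ratio of the shortest 20% of genes was 0.50 at 10 min, 0.40 at 30 min and 0.22 at 8 hr, and that of the longest 20% was -0.25, -0.14 and 0.01. Its part in the early rise of short genes such as those for mitochondrial ribosomal proteins was not tested. Nor was its part in the difference at 30 min between genes for ribosome assembly and for cytosolic ribosomal proteins.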
